A study of Oreochromis niloticus with 8 samples.

Results

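Genes of the folding and stress machinery of the endoplasmic reticulum (ER) were measured by RNA sequencing in midbrain of Nile tilapia (Oreochromis niloticus), a warm-water cichlid fish. The members are 40 genes named for this machinery and matched by exact gene id, of which 34 were found among the 29533 ids of the deposited lists. Levels are read as TPM, transcript abundances scaled by gene length and to a fixed library total. All 34 averaged 1 TPM or more in a group, so all 34 were among the 18863 genes tested. Of the 8 libraries, 4 came from fish held at normothermy (control) and 4 from fish exposed to cold (cold). The labels give no strain, age, temperature, length of exposure or number of fish per library, so the p-values rest on the spread between these libraries alone, which may be technical.

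Secretory and membrane proteins enter the ER through the Sec61 channel, fold there with the help of chaperones, lectins and disulfide isomerases, and are sent for degradation if they fail (ER-associated degradation, ERAD). When unfolded protein accumulates, the sensors IRE1, PERK and ATF6 start the unfolded protein response. IRE1 splices the xbp1 transcript, PERK slows translation and favours the translation of atf4, and ATF6 is cut to release a transcription factor. In mammals these branches raise the transcripts of many of the genes described here. Neurons and neurosecretory cells depend on this machinery for receptors, channels and peptide precursors. A TPM value is a transcript level of the whole gene, so splicing of xbp1, cutting of ATF6 and translation of atf4 were not measured.

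Between the groups, 7 of the 34 ER genes rose and 10 fell, and 17 did not pass the test (limma on log2(TPM + 1), p adjusted by the Benjamini-Hochberg method over all 18863 genes, threshold 0.05). The called share was 50.0%, against 36.7% of all tested genes. The members, and the pathway lists given further below, were chosen with earlier results of these data known. Their called shares are therefore descriptions. The share that rose was 20.6%, against 13.0% of all tested genes, and the share that fell was 29.4%, against 23.6%. Values of control and cold libraries did not overlap for 19 of the 34, or 55.9%, against 36.9% of all tested genes. The ER genes were also more abundant than most, with a median control level of 33.8 TPM against 14.2 TPM. Among the 14419 tested genes that averaged 5 TPM or more in a group, as all 34 did, 41.6% were called. At that level 15.4% of tested genes rose, 26.2% fell and 41.1% had no overlap between groups. The median log2 change was 0.04 over the 34 genes and -0.09 over all tested genes.

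The balance of rises and falls depends on the scaling of the libraries. With TPM rescaled by the median of ratios, 11 ER genes rose and 6 fell, beside 18.2% and 17.3% of all tested genes. The lower share of the calls went from 58.8% to 35.3% for the ER genes and from 64.5% to 48.7% for all genes. Of the 17 calls, 13 were made with both scalings. The falls of hsp90b1, canx, derl1 and syvn1 passed with the deposited values only, and rises of hspa13, dnajb11, hyou1 and sec61a1 passed after rescaling only. Rescaling moved the median change of all genes by 0.08 on the log2 scale.

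**Figure D1:**
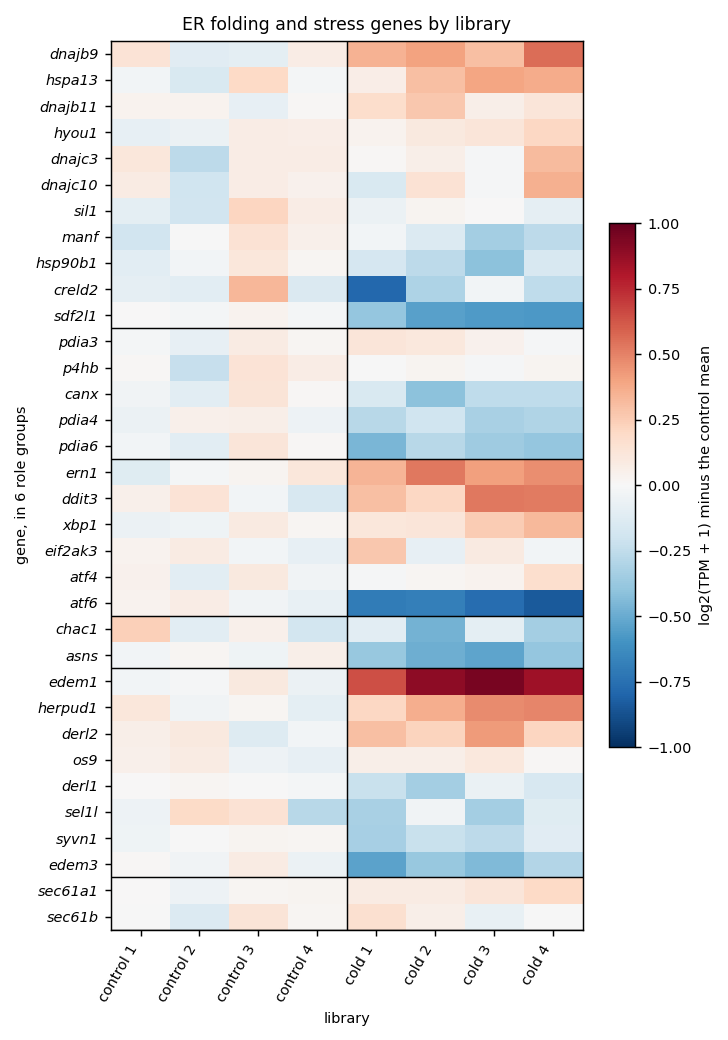
Each row is a gene and each column a library, coloured by log2(TPM + 1) minus the gene's control mean, with black lines between the 6 role groups and between control and cold. The deepest colours across the cold columns are those of edem1, which was higher, and atf6 and sdf2l1, which were lower. Paler rows coloured in every cold library include ern1 and dnajb9, which were higher, and asns, edem3 and pdia6, which were lower. The row of creld2 was deeply coloured in cold 1 alone.

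Libraries of the same group resembled each other more than libraries of different groups (r of log2 values from 0.968 to 0.982 within groups and from 0.943 to 0.963 between them). Of the marker lists, that of hypothalamus was the most variable, with summed levels of its 7 matched markers of 347 to 1455 TPM in control and 461 to 4696 TPM in cold, and none of the 7 was called. The matched genes of the midbrain list, 4 of 8, summed to 24.7 to 32.3 TPM in control and 20.5 to 25.5 TPM in cold, with th and pax7 lower in cold. Whether the listed genes mark midbrain in this fish was not tested, so their levels do not measure midbrain content. Most of the hypothalamus sum came from the single gene oxt (267 to 1354 TPM in control and 384 to 4607 TPM in cold). The other hypothalamus markers lay on both sides of th (8.02 to 15.9 TPM), which the midbrain list holds. In every library trh (39.4 to 62.4 TPM) was above th, and hcrt (at most 3.26 TPM) and gnrh3 (at most 7.47 TPM) were below it. The ranges of pomc, otp and gnrh1 overlapped that of th. Of the midbrain list, pax7 (at most 3.62 TPM) and pax2 (at most 4.57 TPM) were low as well. Pituitary markers, 3 of 8 matched, summed to 9.58 to 15.5 TPM in control and 2.86 to 6.83 TPM in cold, with fshb lower. Sums of the 5 neuron (4459.9 to 4830.3 and 4279 to 4782 TPM), 4 radial glia (3094 to 3510.5 and 2827 to 3939.5 TPM), 5 oligodendrocyte (1715 to 2315 and 1924 to 2236 TPM) and 5 fibroblast markers (39.9 to 67.6 and 32.6 to 44.5 TPM) overlapped between groups, although elavl3 and sox10 were lower in cold. The 4 microglia markers (140.5 to 150.3 and 145 to 172 TPM) overlapped too, with csf1r and irf8 lower and aif1l, a gene that the suffix rule took for aif1, higher. Most of that sum was aif1l (mean 108 of 145 TPM in control and 127 of 157 TPM in cold), so the sum does not measure microglia. Means in control and cold were 13.3 and 9.53 TPM for csf1r, 12.4 and 6.43 TPM for irf8, and 11.8 and 14.1 TPM for spi1, which was not called. No blood cell marker was matched, no matched marker was at 0 in all libraries, and the part of cell makeup in the results below was not tested. In such tissue samples, fewer cells of a type and less RNA per cell cannot be told apart.

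Levels of the ER genes, comparable between genes if the values are scaled by gene length, spanned from 7.64 TPM for edem1 to 434 TPM for chac1 in control. After chac1, which encodes an enzyme that breaks down glutathione, came pdia3 (229 TPM), atf4 (161 TPM), hsp90b1 (158 TPM) and xbp1 (134 TPM). The neighbours atf4 (149 to 172 TPM) and hsp90b1 (147 to 169.8 TPM) overlapped in control. The sensor genes were far lower, with means of 10.2 and 14.1 TPM in control and cold for ern1, 15.1 and 15.9 TPM for eif2ak3 and 24.2 and 14.0 TPM for atf6. The level of xbp1 was below that of hsp90b1 in 4 of 4 control libraries (ratio 0.838 to 0.877) and above it in 4 of 4 cold libraries (1.03 to 1.35). This pair was chosen after its values were seen. Since xbp1 was called higher and hsp90b1 lower, the change of order restates those calls. Neither call held in every alternative.

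Among the sensors and transcription factors, the IRE1 gene, xbp1 and the CHOP gene rose, the ATF6 gene fell, and no difference was called for the PERK gene or atf4. That is 3 rises and 1 fall among 6 genes (3 and 1 after median-of-ratios scaling), or 66.7% called. Of all tested genes 36.7% were called, and 41.6% of those at 5 TPM or more. With 6 genes, the share cannot be set apart from these. The gene atf6 encodes a membrane-bound transcription factor that is cut during ER stress. Its values were 24.7, 25.5, 23.6 and 22.9 TPM in the 4 control libraries and 14.5, 14.7, 13.9 and 13.1 TPM in the 4 cold libraries. Every cold library was below every control library, and no member fell by more. The mean went from 24.2 ± 1.15 to 14.0 ± 0.718 TPM (SD, 4 libraries a group), with a log2 change of -0.75 ± 0.06 (SE) and a limma adjusted p of 8.53e-05.

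The gene ern1 encodes IRE1, the kinase and ribonuclease that splices xbp1. It measured 9.25, 9.99, 10.3 and 11.1 TPM in the 4 control libraries and 13.1, 15.0, 13.8 and 14.4 TPM in the 4 cold libraries. The groups did not overlap, and the mean rose from 10.2 ± 0.75 to 14.1 ± 0.824 TPM (log2 change 0.44 ± 0.08 with a limma adjusted p of 0.00269). Its substrate gene xbp1, whose spliced form encodes an activator of chaperone and ERAD genes, measured 128, 129.8, 142 and 136 TPM in the 4 control libraries and 145, 146, 159 and 168 TPM in the 4 cold libraries. All cold values were above all control values. The change was from 134 ± 6.34 to 155 ± 11.3 TPM (log2 change 0.20 ± 0.06 with a limma adjusted p of 0.0333). The call of xbp1 was lost when control 1, control 2, control 4, cold 3 or cold 4 was omitted (limma adjusted p = 0.0593 to 0.0830), with log2 changes of 0.16 to 0.21.

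Within each library, the ratio of ern1 to atf6 was 0.374 to 0.483 in control and 0.907 to 1.10 in cold. The atf6 level was thus the higher in all 4 control libraries, and in cold the order was mixed, with ern1 above atf6 in 2 of 4 libraries. This pair was chosen after its values were seen, and the ratio is a description.

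The PERK gene eif2ak3 encodes the kinase that phosphorylates the initiation factor eIF2 alpha. Its values were 15.5, 16.1, 14.8 and 14.2 TPM in the 4 control libraries and 18.5, 14.2, 16.2 and 14.8 TPM in the 4 cold libraries, and the groups overlapped. The highest value came from cold 1, and without that library the log2 change was -0.01 in place of 0.06 (95% interval -0.14 to 0.26, limma adjusted p = 0.624). The gene atf4 encodes the transcription factor whose translation rises when eIF2 alpha is phosphorylated. It measured 166, 149, 172 and 157 TPM in the 4 control libraries and 159.8, 164, 165 and 181 TPM in the 4 cold libraries, again with overlap, and a log2 change of 0.05 ± 0.06 (95% interval -0.09 to 0.19, limma adjusted p = 0.533). No difference was called for either gene, whereas the copy atf4b, described below, was called higher.

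The gene ddit3 encodes CHOP, a transcription factor associated with cell death after prolonged ER stress. Its values were 48.3, 51.2, 45.5 and 41.6 TPM in the 4 control libraries and 57.5, 53.7, 67.4 and 67.1 TPM in the 4 cold libraries. The groups did not overlap, with cold 3 and cold 4 the highest. The mean rose from 46.6 ± 4.09 to 61.4 ± 6.91 TPM (log2 change 0.39 ± 0.09 with a limma adjusted p of 0.0112).

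**Figure D2:**
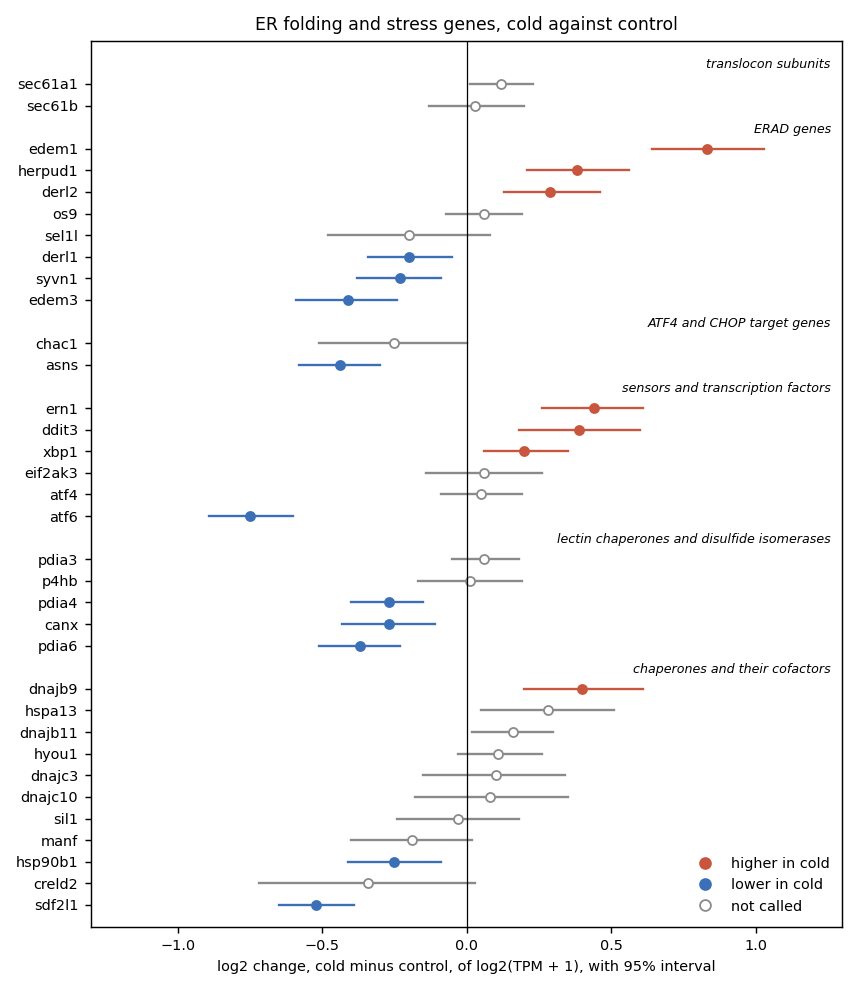
Points are log2 changes, cold minus control, of log2(TPM + 1) for the 34 ER genes with 95% intervals from limma, grouped by role, with filled points for called genes. The ERAD group and the sensor group hold both rises and falls, while called lectin chaperone and disulfide isomerase genes were all lower with the deposited values.

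Of the 8 ERAD genes, 3 rose, 3 fell and 2 did not pass (3 rose and 1 fell after median-of-ratios scaling). The falls of derl1 and syvn1 did not pass after that scaling (limma adjusted p = 0.162 and 0.0943). With the deposited values the called share was above that of all tested genes (36.7%, and 41.6% at 5 TPM or more), though 8 genes are few. The largest rise of any member was that of edem1, which encodes a lectin that draws misfolded glycoproteins towards degradation. It measured 7.48, 7.57, 8.25 and 7.28 TPM in the 4 control libraries and 12.5, 15.1, 15.7 and 14.5 TPM in the 4 cold libraries. Every cold library was above every control library, with cold 1 the lowest of the cold group. The mean rose 1.89-fold, from 7.64 ± 0.423 to 14.4 ± 1.38 TPM (log2 change 0.83 ± 0.09 with a limma adjusted p of 0.000185). Its relative edem3, another mannosidase-like gene of this step, moved the other way. The edem3 values were 13.1, 12.6, 13.7 and 12.3 TPM in the 4 control libraries and 8.63, 9.69, 9.28 and 10.4 TPM in the 4 cold libraries, without overlap. The mean fell from 12.9 ± 0.613 to 9.49 ± 0.73 TPM (log2 change -0.41 ± 0.08 with a limma adjusted p of 0.00339). As a result edem3 was the more abundant in 4 of 4 control libraries (edem1 to edem3 ratio 0.572 to 0.601) and edem1 in 4 of 4 cold libraries (1.40 to 1.69), a comparison chosen after the values were seen.

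The gene herpud1 encodes a ubiquitin-like ER membrane protein of the ERAD complex. It measured 34.2, 30.9, 32.0 and 29.5 TPM in the 4 control libraries and 36.6, 41.1, 44.1 and 44.7 TPM in the 4 cold libraries. The groups did not overlap, and the mean rose from 31.7 ± 1.98 to 41.6 ± 3.69 TPM (log2 change 0.38 ± 0.08 with a limma adjusted p of 0.00508). The derlin gene derl2, which encodes a membrane protein of the export channel, measured 33.8, 34.7, 29.5 and 31.7 TPM in the 4 control libraries and 40.2, 37.9, 43.7 and 37.7 TPM in the 4 cold libraries. It also rose without overlap, from 32.4 ± 2.34 to 39.9 ± 2.81 TPM (log2 change 0.29 ± 0.07 with a limma adjusted p of 0.0136).

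The other derlin gene, derl1, went from 46.1 ± 0.486 to 40.1 ± 3.20 TPM (log2 change -0.20 ± 0.06 with a limma adjusted p of 0.0373). This fall was the least firm of the calls, since it was lost when any library other than cold 3 was omitted (limma adjusted p = 0.0507 to 0.0820). The derl2 to derl1 ratio was 0.642 to 0.743 in control and 0.915 to 1.05 in cold, so that derl1 was the more abundant in all control libraries and the cold libraries were evenly divided. That comparison, too, was chosen after the values were seen. The ubiquitin ligase gene syvn1, which encodes HRD1, fell from 25.3 ± 0.55 to 21.4 ± 1.46 TPM (log2 change -0.23 ± 0.06 with a limma adjusted p of 0.0194), a call that was lost without control 3 or cold 3 (limma adjusted p = 0.0523 and 0.0502). Its adaptor gene sel1l measured 11.3 ± 1.77 TPM (control) and 9.64 ± 1.13 TPM (cold) and the lectin gene os9 38.5 ± 2.21 TPM (control) and 40.1 ± 1.06 TPM (cold), and neither passed (limma adjusted p = 0.227 and 0.454).

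Of the 11 chaperone and cofactor genes, 1 rose, 2 fell and 8 did not pass (4 rose and 1 fell after median-of-ratios scaling). Called genes made up 27.3% with the deposited values, and 11 genes are too few to set this apart from the 36.7% of all tested genes. The gene dnajb9 encodes ERdj4, a J-domain cochaperone that in mammals also restrains IRE1. Its values were 11.5, 9.48, 9.60 and 11.0 TPM in the 4 control libraries and 13.5, 14.0, 13.0 and 15.7 TPM in the 4 cold libraries. No cold library overlapped the control range, and the mean rose from 10.4 ± 1.01 to 14.0 ± 1.21 TPM (log2 change 0.40 ± 0.09 with a limma adjusted p of 0.00837). The gene sdf2l1 encodes a partner of ER chaperone complexes. It measured 44.1, 43.5, 45.3 and 43.6 TPM in the 4 control libraries and 33.5, 29.9, 29.5 and 29.3 TPM in the 4 cold libraries. The control values lay within a narrow range, all above the cold values, and the mean fell from 44.1 ± 0.823 to 30.5 ± 1.98 TPM (log2 change -0.52 ± 0.06 with a limma adjusted p of 0.000273).

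The gene hsp90b1 encodes GRP94, the Hsp90 chaperone of the ER. Its values were 147, 154, 169.8 and 159.9 TPM in the 4 control libraries and 139.9, 131, 118 and 141 TPM in the 4 cold libraries. The groups did not overlap, with cold 3 the lowest. The fall was from 158 ± 9.83 to 133 ± 10.4 TPM (log2 change -0.25 ± 0.07 with a limma adjusted p of 0.0225). It was not called without control 3, control 4 or cold 3 (limma adjusted p = 0.0628, 0.0518 and 0.0504), nor after median-of-ratios scaling (log2 change -0.16, adjusted p = 0.133).

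The remaining chaperone genes did not pass with the deposited values. Means in control and cold were 13.0 and 16.0 TPM for hspa13, a Hsp70-family gene, 35.1 and 39.3 TPM for dnajb11, which encodes ERdj3, and 37.5 and 40.6 TPM for hyou1, which encodes GRP170. The limma adjusted p was 0.055, 0.0777 and 0.19 in that order. After median-of-ratios scaling hspa13, dnajb11 and hyou1 were called higher (log2 change 0.37, 0.25 and 0.2, limma adjusted p = 0.0154, 0.0239 and 0.0256). The values of dnajb11 did not overlap between groups (33.1 to 36.1 and 36.5 to 42.6 TPM). The hspa13 rise also passed with the deposited values when control 3 (limma adjusted p = 0.0319) or cold 1 (0.0228) was left out, and with a filter at 5 TPM (0.0453). Means were 17.3 and 18.5 TPM for dnajc3, which encodes an inhibitor of PERK, 15.1 and 16.2 TPM for dnajc10, which encodes a disulfide reductase, and 18.7 and 18.3 TPM for sil1, which encodes a nucleotide exchange factor (limma adjusted p = 0.528, 0.615 and 0.845). The genes of the secreted ER proteins manf and creld2 measured 28.8 and 25.1 TPM and 22.3 and 17.5 TPM (limma adjusted p = 0.143 and 0.137), and creld2 varied most within cold, from 12.4 to 21.6 TPM.

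Of the 5 lectin chaperone and disulfide isomerase genes, 3 fell (2 after median-of-ratios scaling) and none rose with either scaling. Of all tested genes, 13.0% rose and 23.6% fell (18.2% and 17.3% after scaling). With 5 genes, the lack of a rise is not unusual beside these shares. The isomerase gene pdia6 measured 65.1, 61.8, 72.2 and 67.2 TPM in the 4 control libraries and 48.1, 54.6, 51.8 and 50.6 TPM in the 4 cold libraries. All cold values were below all control values, and the mean fell from 66.6 ± 4.35 to 51.3 ± 2.68 TPM (log2 change -0.37 ± 0.06 with a limma adjusted p of 0.00223). The isomerase gene pdia4 measured 44.3, 48.0, 48.2 and 44.5 TPM in the 4 control libraries and 38.0, 40.02, 36.8 and 37.4 TPM in the 4 cold libraries, also without overlap. Its mean fell from 46.2 ± 2.12 to 38.0 ± 1.41 TPM (log2 change -0.27 ± 0.05 with a limma adjusted p of 0.00479). The calnexin gene canx, which encodes the membrane-bound lectin chaperone and is given in full after its values were seen, measured 71.8, 68.3, 80.4 and 73.9 TPM in the 4 control libraries and 66.0, 54.9, 61.3 and 61.3 TPM in the 4 cold libraries. The lowest value was that of cold 2, and the groups did not overlap. The mean fell from 73.6 ± 5.07 to 60.9 ± 4.56 TPM (log2 change -0.27 ± 0.07 with a limma adjusted p of 0.0172), and after median-of-ratios scaling it did not pass (log2 change -0.18, adjusted p = 0.0720).

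The more abundant isomerase gene pdia3 and the gene p4hb, which encodes protein disulfide isomerase itself, did not pass. Levels were 229 ± 10.9 TPM (control) and 239 ± 9.80 TPM (cold) for pdia3 (log2 change 0.06, 95% interval -0.05 to 0.18, limma adjusted p = 0.366). Those of p4hb were 47.7 ± 5.21 TPM (control) and 47.8 ± 0.729 TPM (cold) (log2 change 0.01, 95% interval -0.17 to 0.19, limma adjusted p = 0.939). The cold libraries were close together for p4hb (47.1 to 48.5 TPM) and lay within the control range (40.4 to 52.4 TPM).

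Of the 2 target genes of ATF4 and CHOP found by id, asns fell. It encodes asparagine synthetase, which in mammals is raised by ATF4 during amino acid shortage and ER stress. Its values were 21.2, 22.0, 21.1 and 22.6 TPM in the 4 control libraries and 16.5, 15.2, 14.8 and 16.4 TPM in the 4 cold libraries. The groups were well separated, and the mean fell from 21.7 ± 0.697 to 15.7 ± 0.849 TPM (log2 change -0.44 ± 0.06 with a limma adjusted p of 0.000851). The gene chac1, given in full after its values were seen, measured 509.7, 401, 446 and 381 TPM in the 4 control libraries and 402, 311, 404 and 341 TPM in the 4 cold libraries, with overlap and the widest absolute spread of any member. Its log2 change of -0.25 ± 0.11 did not pass (limma adjusted p = 0.111).

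The translocon genes sec61a1 and sec61b, which encode subunits of the Sec61 channel, did not pass. The values of sec61a1 were 65.8 to 69.6 TPM in control and 72.3 to 78.4 TPM in cold, without overlap (log2 change 0.12 ± 0.05 with a limma adjusted p of 0.0781), and after median-of-ratios scaling it was called higher (log2 change 0.21, adjusted p = 0.00598). Those of sec61b were 94.0 to 113 and 98.3 to 116 TPM (log2 change 0.03 ± 0.07 with a limma adjusted p of 0.744).

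**Figure D3:**
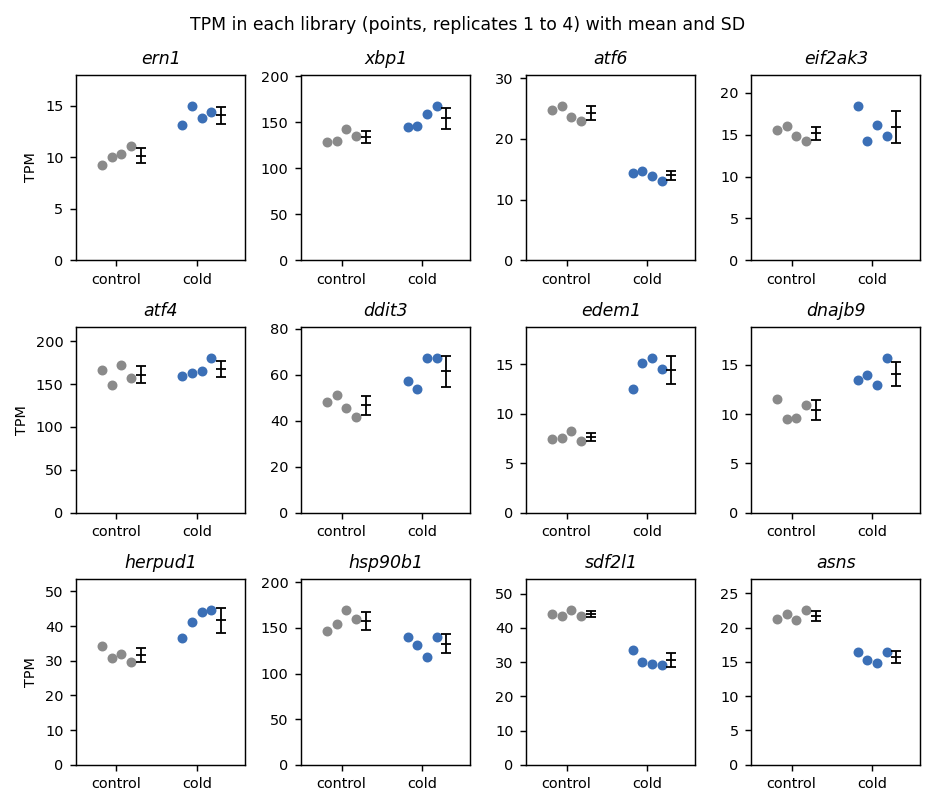
Each panel shows the TPM of a gene in each of the 4 control (grey) and 4 cold (blue) libraries in replicate order, with the mean and SD in black and an axis that starts at 0. Control and cold points do not overlap for ern1, xbp1, atf6, ddit3, edem1, dnajb9, herpud1, hsp90b1, sdf2l1 and asns, and they overlap for eif2ak3 and atf4.

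Summed over their members, the chaperone and cofactor genes held 399.8 ± 21.3 TPM (control) and 369 ± 14.4 TPM (cold), and the sensor and transcription factor genes 391 ± 12.7 and 427 ± 24.7 TPM. The ERAD genes summed to 206 ± 6.34 and 217 ± 9.54 TPM. These sums are dominated by the most abundant members, such as hsp90b1, atf4 and xbp1, and are given without a test.

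Within groups the ER genes were measured with a median coefficient of variation of 6.29% in control and 7.26% in cold, ranging up to 17.3% for creld2 in control and 21.7% for the same gene in cold. The libraries control 4 and cold 2 had the lowest median correlation of log2 values with their own group, which was 0.971 for control 4 against 0.98 to 0.981 for the other controls and, by a narrow margin, 0.974 for cold 2 in a cold group that reached 0.981. They differed from the other 3 of their group in ER gene levels by a median of 0.01 and 0.00 on the log2 scale (range -0.38 to 0.15 and -0.29 to 0.23). Without them, 6 ER genes rose and 7 fell. In that setting hsp90b1, canx, xbp1, derl1 and syvn1 were no longer called (limma adjusted p = 0.0551 to 0.112), and sel1l was called lower (log2 change -0.36, adjusted p = 0.0453).

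Of the 6 genes not found by exact id, 4 have ids to which a reference gene table gives the member's symbol or that of an a or b copy. They are described here apart from the 34, and which of them to give in full was decided with their values known. The gene trib3, which encodes a pseudokinase induced by ATF4 and CHOP in mammals, measured 2.08, 1.75, 2.23 and 1.86 TPM in the 4 control libraries and 6.33, 7.07, 7.80 and 8.68 TPM in the 4 cold libraries. All cold values were above all control values, and the mean rose 3.77-fold, from 1.98 ± 0.216 to 7.47 ± 1.01 TPM (log2 change 1.50 ± 0.12 with a limma adjusted p of 4.82e-05). This was a larger change than that of any of the 34 ER genes. The calreticulin gene calr, which encodes the soluble counterpart of calnexin, measured 161, 168, 169 and 164 TPM in the 4 control libraries and 150.3, 149, 134 and 138 TPM in the 4 cold libraries. It fell from 165 ± 3.49 to 143 ± 8.20 TPM (log2 change -0.21 ± 0.05 with a limma adjusted p of 0.0124) without overlap, but not after median-of-ratios scaling (log2 change -0.12, adjusted p = 0.159).

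The mannosidase-like gene edem2 measured 3.69 ± 0.487 TPM (control) and 3.16 ± 0.12 TPM (cold) and did not pass (limma adjusted p = 0.263). For atf5, a transcription factor gene of the stress response, the copies atf5a (3.16 and 4.81 TPM in control and cold, log2 change 0.49) and atf5b (6.91 and 6.77 TPM) did not pass (limma adjusted p = 0.0521 and 0.902). Values of atf5a did not overlap between groups, and it was called without cold 3 (log2 change 0.58, adjusted p = 0.0433) and after median-of-ratios scaling (0.56, adjusted p = 0.0341). With a pseudocount of 5, limma without trend or a replicate block it was called too (limma adjusted p = 0.0470, 0.0499 and 0.0318). The genes hspa5, which encodes the main ER chaperone BiP, and derl3 were not analysed here.

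Reference symbols also gave copies or relatives of 5 genes among the 34, and in 3 of the 5 pairs the ratio between the partners differed between groups. The copy dnajb9a went from 36.4 ± 1.64 to 30.5 ± 2.66 TPM (log2 change -0.25 ± 0.07 with a limma adjusted p of 0.0239), opposite in sign to dnajb9. Control and cold values of dnajb9a overlapped narrowly (34.0 to 37.8 and 27.7 to 34.1 TPM). The dnajb9 to dnajb9a ratio was 0.257 to 0.312 in control and 0.411 to 0.569 in cold (log2 difference 0.65 ± 0.11). The call of dnajb9a itself was lost when control 1, control 2, control 4, cold 1, cold 3 or cold 4 was omitted (limma adjusted p = 0.0523 to 0.0594) and after median-of-ratios scaling (log2 change -0.16, adjusted p = 0.139). With the replicate block that call was lost too (limma adjusted p = 0.0563).

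The copy atf4b measured 303, 293, 303 and 292 TPM in the 4 control libraries and 409, 386, 379 and 382 TPM in the 4 cold libraries, above atf4 in every library. It rose without overlap, from 298 ± 6.28 to 389 ± 13.5 TPM (log2 change 0.38 ± 0.04 with a limma adjusted p of 0.000288). The atf4 to atf4b ratio was 0.509 to 0.568 in control and 0.391 to 0.473 in cold (log2 difference -0.33 ± 0.07). For atf6 the partner was atf6b, a separate gene of a related factor, which measured 28.4 ± 4.02 TPM (control) and 32.3 ± 1.38 TPM (cold) and did not pass (limma adjusted p = 0.157), although it was called higher after median-of-ratios scaling (log2 change 0.28, adjusted p = 0.0447). The atf6 to atf6b ratio went from 0.744 to 1.08 in control to 0.407 to 0.480 in cold (log2 difference -0.94 ± 0.13).

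For dnajb9, atf4 and atf6 the exact permutation p of the difference in log2 ratio, two-sided, was 0.0286 (0.0477 adjusted over the 5 pairs), the smallest that 4 against 4 libraries can give. In each of these pairs a partner was itself called (dnajb9 and dnajb9a, atf4b, atf6), so the ratios partly restate those calls. The other 2 pairs did not pass. The copy dnajc3b rose from 22.4 ± 1.89 to 28.1 ± 1.94 TPM (log2 change 0.32 ± 0.08 with a limma adjusted p of 0.0119), while the log2 difference of its ratio to dnajc3 was -0.22 ± 0.09 (exact permutation p = 0.0571, adjusted 0.0714). The copy sec61a1a measured 30.1 and 31.5 TPM (limma adjusted p = 0.486), and its ratio to sec61a1 differed by 0.06 ± 0.06 on the log2 scale (exact permutation p = 0.486). Reads of near-identical copies could have been divided between them in the counting, so the values of single copies are uncertain. All 5 pairs that the symbols gave were compared, and the comparison was added after the values were seen.

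**Figure D4:**
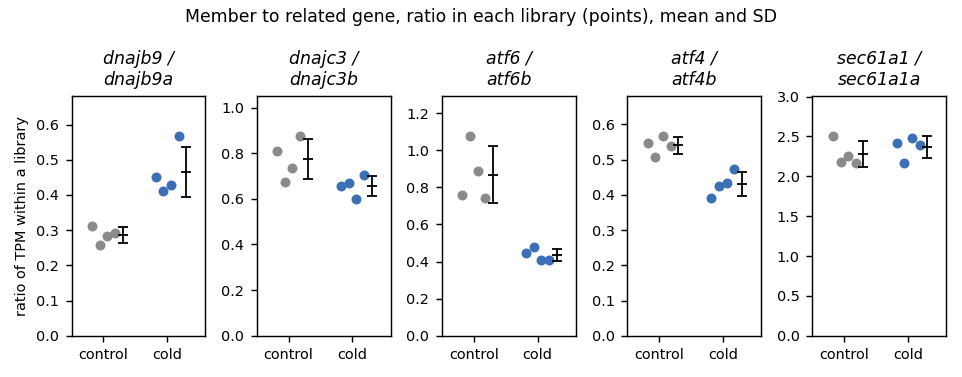
Each panel shows the ratio of the TPM of an ER gene to that of its copy or relative in each control (grey) and cold (blue) library, with the mean and SD in black and an axis that starts at 0. Control and cold points do not overlap for dnajb9 to dnajb9a, atf6 to atf6b and atf4 to atf4b.

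Other genes of the ER pathways, 137 tested genes in 7 lists that hold none of the 34, gave 25 rises and 34 falls, or 43.1% called, against 36.7% of all tested genes, with a median log2 change of -0.05. Most of the 137 averaged 5 TPM or more in a group, and 41.6% of all tested genes at that level were called, which is close to 43.1%. With median-of-ratios scaling the balance turned to 32 rises and 22 falls, with a median of 0.04. As given above, 13.0% of all tested genes rose and 23.6% fell with the deposited values, and 18.2% and 17.3% after scaling. The enzymes of disulfide formation and folding held 2 rises and 10 falls among 31 genes, or 38.7% called, with a median log2 change of -0.17 (4 rises, 7 falls and a median of -0.09 after median-of-ratios scaling). Those of lowest p all fell. They were the collagen chaperone gene serpinh1 (25.9 to 6.31 TPM, limma adjusted p = 3.03e-05), the oxidase gene ero1b, whose product recharges disulfide isomerases (23.5 to 12.1 TPM, 4.06e-05), the retention factor gene erp44 (25.4 to 17.6 TPM, 0.000283) and the peroxidase gene gpx8 (10.4 to 5.65 TPM, 0.000814). Sums of the fibroblast markers, whose cells make collagen, overlapped between groups, as given above, with means of 52.5 TPM (control) and 41.2 TPM (cold). All 4 tested fibroblast markers had negative log2 changes (median -0.27, and -0.18 after median-of-ratios scaling), and none was called. The part of such cells in the fall of serpinh1 was not tested.

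In N-glycosylation and glycoprotein quality control, 1 of 16 genes rose and 4 fell (1 and 3 after scaling). The called share was 31.25%, and 16 genes are too few to set this apart from the 36.7% of all tested genes. The subunits of glucosidase II, which trims glucose from new glycoproteins before calnexin binds them, moved apart. The gene ganab of the catalytic subunit fell (60.1 to 35.5 TPM, log2 change -0.75 ± 0.07 at a limma adjusted p of 0.000156) and the gene prkcsh of the other subunit rose (58.5 to 70.1 TPM, log2 change 0.26 ± 0.06 at a limma adjusted p of 0.0105, and 0.0506 without control 4 and cold 2). The other falls of lowest p were those of uggt2, which encodes a relative of the glucosyltransferase that senses folding (10.1 to 7.46 TPM, limma adjusted p = 0.00426), and krtcap2, which encodes an oligosaccharyltransferase subunit (35.6 to 26.6 TPM, limma adjusted p = 0.0106).

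The further ERAD and ER ubiquitin genes held 9 rises and 8 falls among 26 genes (10 rises and 5 falls after median-of-ratios scaling). The called share was 65.4%, against 36.7% of all tested genes and 41.6% of those at 5 TPM or more. The conjugating enzyme gene ube2j2 (29.3 to 17.9 TPM, limma adjusted p = 0.00011), the ligase gene march6 (44.0 to 31.5 TPM, 0.000202) and ngly1, which encodes the enzyme that removes sugars from exported glycoproteins (26.7 to 19.8 TPM, 0.00188), fell. The gene faf2, which encodes a recruiter of the VCP segregase to the ER membrane, rose (37.0 to 47.1 TPM, limma adjusted p = 0.00388). So did vcp itself (202 to 239 TPM, 0.0165), named after its values were seen.

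Of 21 translocation and signal peptide processing genes, 5 rose and 4 fell (7 and 3 after scaling). The called share was 42.9%, beside 36.7% of all tested genes. The partner genes sec62 and sec63, whose products assist the Sec61 channel, moved in opposite directions. The level of sec62 fell (69.8 to 47.2 TPM, log2 change -0.56 ± 0.07 at a limma adjusted p of 0.000337) and that of sec63 rose (16.9 to 24.6 TPM, log2 change 0.52 ± 0.06 at a limma adjusted p of 0.000383). The translocation gene tram1 (12.1 to 8.20 TPM, limma adjusted p = 0.00076) and the receptor subunit gene srprb (38.6 to 31.0 TPM, 0.00179) fell.

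Among 20 genes of the integrated stress response and amino acid supply, 5 rose and 5 fell (5 and 3 after scaling). The called share was 50.0%, beside 36.7% of all tested genes and 41.6% of those at 5 TPM or more. Falls were those of nck1, an adaptor gene (23.7 to 16.1 TPM, limma adjusted p = 0.00222), and slc7a5, which encodes a transporter of large neutral amino acids (204 to 153 TPM, 0.00508). Rises were those of ddit4, which encodes an inhibitor of growth signalling (314 to 445 TPM, limma adjusted p = 0.00345), and cth, of cysteine synthesis (35.3 to 45.6 TPM, 0.00508). The genes atf3, a stress-induced transcription factor gene (3.46 to 6.40 TPM, log2 change 0.77 ± 0.23 at a limma adjusted p of 0.0261), and nupr1, a stress-induced chromatin protein gene (110.3 to 141 TPM, log2 change 0.37 ± 0.12 at a limma adjusted p of 0.0392), rose too and are named after their values were seen. Control and cold values of nupr1 overlapped (89.2 to 137 and 127 to 154 TPM). The call of atf3 was lost without control 3, control 4, cold 3 or cold 4 (limma adjusted p = 0.0523 to 0.0694), and that of nupr1 when any library other than control 2 and cold 2 was left out (0.0716 to 0.0951). Also named after their values were seen, the serine synthesis genes phgdh (70.4 and 69.0 TPM in control and cold), psat1 (124 and 125 TPM) and psph (60.8 and 60.1 TPM), which ATF4 also raises in mammals, did not pass (limma adjusted p = 0.776, 0.882 and 0.871).

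Of 14 other regulators of the unfolded protein response, 2 rose and 2 fell (3 and 1 after scaling). The called share was 28.6%, and 14 genes are too few to set this apart from the 36.7% of all tested genes. The largest change was the rise of crebrf, which encodes a regulator of a CREB3-type factor (2.33 to 7.41 TPM, log2 change 1.32 ± 0.15 at a limma adjusted p of 0.000278). The gene dab2ip, which encodes a scaffold of stress kinase signalling, fell (30.7 to 25.4 TPM, limma adjusted p = 0.00684). The calls of bfar and mbtps2 were lost when single libraries were left out. The gene mbtps2, which encodes a protease that cuts ATF6, fell from 10.9 ± 1.21 to 8.70 ± 0.402 TPM (limma adjusted p = 0.0333), and the limma adjusted p was 0.0609 to 0.0813 when control 2, control 4, cold 1, cold 3 or cold 4 was left out. After median-of-ratios scaling mbtps2 did not pass either (log2 change -0.20 in place of -0.28, adjusted p = 0.120). The gene bfar, of an ER-bound ligase, rose (11.8 to 14.3 TPM, limma adjusted p = 0.0295, and 0.0549 to 0.0744 when any library other than control 3 and cold 3 was left out). Of 9 ER-phagy and ER shape genes, retreg2 rose (33.3 to 41.3 TPM, limma adjusted p = 0.00326) and tex264, an ER-phagy receptor gene, fell (38.9 to 33.7 TPM, limma adjusted p = 0.0185, and 0.0515 and 0.0513 without control 1 and control 2). After median-of-ratios scaling 2 of the 9 rose and none fell, with tex264 not called (log2 change -0.11 in place of -0.20, adjusted p = 0.156). With the deposited values the called share was 22.2%, and 9 genes are too few to set this apart from the 36.7% of all tested genes.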

How the data were processed

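Groups and replicate numbers came from the sample labels (4 control and 4 cold libraries of poly(A) RNA; TRIzol and an Illumina TruSeq RNA kit, per the labels' protocols). The submitters' processing notes name HISAT2. For the counting program, genome build, annotation, versions and strand handling, nothing is given in the sources used here. The authors deposited 1 list of values per library. The unit was read as TPM, since each deposited list sums to 1000000 over 29533 genes. That total would also hold for values not scaled by gene length, so comparisons of level between genes rest on this reading. TPM keeps no depth, so depth is unknown and no counting intervals are given.

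Because the values are not counts, limma 3.58.1 in R 4.3.3 (trend on, robust off) was fitted to log2(TPM + 1), cold against control, over the 18863 genes that averaged 1 TPM or more in a group. Tests were two-sided with Benjamini-Hochberg adjustment over all of them, and a gene was called under 0.05. Because of the added 1, log2 changes of genes with low TPM are understated. The test was checked on simulated data in which 200 genes were changed, far fewer than were called here. It recovered 52.2% of 1.5-fold, 82.1% of 2-fold and 92.4% of 4-fold changes, and 2.58% of its calls were false. With so few genes changed, these rates need not hold for the real data. Genes that did not pass are not shown to be unchanged. Ratios between copies were compared by an exact permutation test. Symbols for ids without one came from the RefSeq table of assembly O_niloticus_UMD_NMBU.

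The members and lists were chosen with earlier results of these data known. Pathway and marker genes were matched by id with copy suffixes, which took in the different genes aif1l and ddit4l. All 34 members are reported, with values in every library for 7 sensor, factor and chaperone genes and for the 6 largest called rises and falls, and up to 4 called genes of lowest p per pathway list. Others are marked as named after their values were seen. Alternatives were another scaling, pseudocounts of 0.1 and 5, no filter and a filter at 5 TPM, robust and untrended limma, a replicate block, each library left out, and control 4 and cold 2 left out together.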

Additional observations from a re-analysis of the deposited data

Results flagged for a closer look

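In 4 of the 68 groups of 4 libraries looked at (34 genes in control and in cold), a library lay far from the other 3 by Dixon's gap test, and chance gives about 1 in 20 groups. The library control 2 was low for dnajc3, with 14.2 TPM against 18.2 to 18.7 TPM in the other controls, and for dnajc10, with 13.0 TPM against 15.6 to 16.0 TPM. Neither gene was called with or without it. The value of sdf2l1 in cold 1 was 33.5 TPM, above the 29.3 to 29.9 TPM of the other cold libraries and below every control library. The value of creld2 in control 3 was 28.1 TPM, above the 19.9 to 20.7 TPM of the other controls, and creld2 was not called with or without that library.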

How the results depend on the processing

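Over 17 alternatives the 34 members gave 578 values, of which 531 kept their direction and their side of the threshold. The calls of dnajb9, sdf2l1, pdia4, pdia6, ern1, atf6, ddit3, asns, herpud1, edem1 and edem3, 11 of 17, held in every alternative. Of the others, 31 values lost a call, 9 gained one and 7 changed sign, none of these 7 called in either setting. The sign changes were those of sil1 (0.060 under median-of-ratios scaling and -0.091 to 0.044 with single libraries left out, positive without control 3), p4hb (-0.067 to 0.055 with single libraries left out, negative without control 2), sec61b (-0.013 to 0.077, negative without control 2 and cold 1), eif2ak3 (-0.0080 to 0.11, negative without cold 1) and dnajc10 (-0.0062 to 0.16, negative without cold 4). The copy atf5b turned to 0.054 under that scaling, and ranged from -0.086 to 0.073 with single libraries left out. Under median-of-ratios scaling, by which every gene of a library is multiplied by the same factor, members called were 11 higher and 6 lower, and pathway genes called numbered 32 higher and 22 lower in place of 25 and 34. Leaving out single libraries gave 6 to 8 members higher, 7 to 9 lower, 16 to 21 pathway genes higher (16 without control 4), 26 to 33 pathway genes lower, and 5782 to 6387 called genes in all. Without control 4 and cold 2 together, 12 pathway genes rose in place of 25. The causes of these differences were not tested. Same-numbered libraries did not deviate together (r of -0.226 to 0.0542, and 0 of 8 libraries correlated best with their own number), so the numbers are not taken as pairs. With the replicate block, 6 members rose, 9 fell and 16 pathway genes rose. The calls of hsp90b1, derl1 and derl2 (adjusted p = 0.0703, 0.0831 and 0.0519) were not made there, and chac1 was called lower (0.0290). Differences of the copy ratios kept their direction with each library left out and their exact p side with both other pseudocounts, alternatives chosen after seeing the data. Depth is unknown, so the precision of low genes such as edem1 and ern1 rests on the spread between libraries alone.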
